A study of Mus musculus with 8 samples.

Results

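The 31 genes described here encode enzymes of serine synthesis, the folate cycle, purine and pyrimidine synthesis and the supply of deoxynucleotides. They were taken as a fixed list of gene symbols, and all 31 were found among the 32285 genes of the count matrices and passed the filter on low counts in every comparison. They were followed in tumour-infiltrating OT-I T cells, that is CD8+ T cells whose receptor recognises ovalbumin. All groups shared the same background: OT-I cells with a Cas9 knock-in, carrying a lentiviral guide library against metabolic genes and selected for CD90.1, a surface marker that the guide vector brings along. The cells were injected into mice with orthotopic pancreatic tumours of KPC_OVA cells, a KPC pancreatic cancer line made to express ovalbumin, and CD90.1+ cells were sorted from the primary tumour 7 days after transfer. Treatment began on the day of transfer, with a blocking antibody against PD-1 (aPD-1) in 3 libraries and with control IgG in 1 library. The mice were 6 to 12 weeks old, and the sources used here give the mice per treatment but not how they were divided over libraries. The guides of the kept cells were directed at 83 genes, none of them among the 31, or were nontargeting in 2685 cells, and cells were pooled over guides.

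Serine synthesis feeds carbon units into the folate cycle, and the folate cycle passes them on to purine rings and to thymidylate. Dividing T cells need these products because DNA cannot be copied without deoxynucleotides, and several of the enzymes are known in other cells to be made mainly around S phase. Thymidylate synthase (Tyms), ribonucleotide reductase (Rrm1 and Rrm2), dUTPase (Dut) and dCMP deaminase (Dctd) make or protect deoxynucleotides. Thymidine kinase (Tk1) and deoxycytidine kinase (Dck) recover deoxynucleosides by salvage. Phgdh, Psat1 and Psph are the 3 steps of serine synthesis, and Shmt1, Shmt2, Mthfd1, Mthfd2 and Mthfd1l belong to the folate cycle. The ring of purines is built by Ppat, Gart, Pfas, Paics, Adsl and Atic from the sugar phosphate that Prps1 supplies, and Adss, Impdh1, Impdh2 and Gmps lead to AMP and GMP. Cad, Umps and Ctps make pyrimidines, and Nme1 and Nme2 are nucleoside diphosphate kinases.

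Rrm1, Rrm2 and Tyms, which supply deoxynucleotides directly, were among the members with the largest differences between phases, so the sequence upstream of these 3 genes is shown first. The windows come from RefSeq (GRCm38.p6, the patch build of mm10), run 5′ to 3′ on the strand of the gene and end just before its start, and capitals mark the searched words CCAAT and CACGTG. Rrm1, which encodes the large subunit of ribonucleotide reductase, starts next to chr7:102441445-102441694 on the plus strand. Rrm2, the small subunit, lies beside chr12:24708004-24708240 on the plus strand. Tyms, on the minus strand, follows chr5:30073626-30073875.
Rrm1: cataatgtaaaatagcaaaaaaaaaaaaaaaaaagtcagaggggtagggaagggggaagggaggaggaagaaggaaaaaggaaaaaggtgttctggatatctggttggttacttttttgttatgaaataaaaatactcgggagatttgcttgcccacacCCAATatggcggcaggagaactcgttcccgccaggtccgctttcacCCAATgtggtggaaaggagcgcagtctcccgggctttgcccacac
Rrm2: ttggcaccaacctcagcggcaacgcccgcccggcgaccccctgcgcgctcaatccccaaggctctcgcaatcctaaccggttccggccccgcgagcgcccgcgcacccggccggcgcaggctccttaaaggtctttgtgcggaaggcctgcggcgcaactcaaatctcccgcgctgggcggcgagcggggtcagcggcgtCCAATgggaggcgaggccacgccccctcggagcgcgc
Tyms: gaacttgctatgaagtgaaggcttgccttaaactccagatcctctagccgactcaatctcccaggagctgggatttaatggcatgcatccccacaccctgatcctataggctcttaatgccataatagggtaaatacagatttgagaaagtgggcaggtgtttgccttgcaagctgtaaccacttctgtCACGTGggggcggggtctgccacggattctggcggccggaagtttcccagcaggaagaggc

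RefSeq windows of 250 bases matched 30 of the 31 genes, and the RefSeq start of Rrm2 lay 13 bases inside the gene as GENCODE gives it, so those bases were left off above. The CCAAT word, on either strand, was in 13 of the 30 windows (43.3%) against 34.5% of the 27025 windows of all genes. In Rrm1 it began 91 and 45 bases before the start, and in Rrm2 50 bases before the RefSeq start. CACGTG, the E-box that MYC proteins bind, was in the windows of 5 members (16.7%), Atic, Impdh2, Nme1, Paics and Tyms, against 6.05% of all windows, and in Tyms it began 61 bases before the start. Any of the 4 words searched for E2F (TTTCCCGC, TTTCGCGC, TTTGCCGC and TTTGGCGC) was found in the window of 1 member, Ppat (3.33%), and in 1.91% of all windows. Neither TGATGCAA nor TGATGAAA, words for ATF4, was in a member's window, and 1.68% of all windows held one. The RefSeq and GENCODE starts differ for many members: 16 of the 30 windows reached into the gene as GENCODE gives it and 5 lay wholly inside it. Words wholly outside the gene were left in 8 members for CCAAT, in 2 for CACGTG (Paics and Tyms) and in Ppat for E2F. The windows of all genes were not cut in this way, so no share of them stands beside these counts. These are matches of letters in a short window, with no measurement of binding.

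The libraries gave 23059 cells with a single guide that passed the filters, of which 2535, 2597 and 6432 came from aPD-1 replicates 1, 2 and 3 and 11495 from IgG. Median depth ran from 6329 UMIs per cell in IgG to 16829 in aPD-1 replicate 1, and the kept cells of a library held 48182760 to 88543446 UMIs. The labels give replicates 1 and 2 a common name without saying whether they came from separate mice, so p-values measure only the spread between these libraries, which may be technical. The summed level of 8 T cell genes lay between 6067 and 6639 UMIs per 1000000 UMIs of all genes (CPM), with Cd4 at no more than 0.124 CPM. Single genes of that list differed between libraries: Trac was at 1918 and 1769 CPM in aPD-1 replicates 1 and 2 and at 798 and 700 CPM in replicate 3 and IgG, and Cd3g at 876, 906, 1389 and 1273 CPM in that order. Markers of other cells stood apart in a pair of libraries: B or plasma cell genes summed to 139.8 CPM in aPD-1 replicate 3, where Igkc alone was at 127 CPM, against 3.0 to 5.3 CPM elsewhere, and in replicate 2 fibroblast genes summed to 12.6 CPM against 0.2 CPM and tumour epithelium genes to 23.5 CPM against 11.2 to 12.8 CPM. Between pairs of libraries, 3 to 18 kept barcodes were shared.

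To ask how the genes follow the cell cycle, each cell was called G1, S or G2M within its library from standard S and G2M gene lists, from which Tyms, Rrm1, Rrm2 and every other member had been removed. This gave 11407 G1, 6602 S and 5050 G2M cells, and 14.6% of cells had scores within 0.05 of another call. Cells in S and G2M held more RNA. The median UMI count was 12960, 12631, 10117 and 5215 per G1 cell in aPD-1 replicates 1, 2 and 3 and IgG, and 20375.5, 19761, 15238 and 7397.5 per S cell. All levels below are therefore CPM from UMIs summed over the cells of a phase in a library. Differences are log2 fold changes followed by the standard error, and they come from edgeR's quasi-likelihood test with library as a block. Differences were tested between groups of cells, not between genes.

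In S phase 29 of the 31 genes were higher than in G1 and none was lower. Of all 12252 genes tested, 27.2% were higher in S and 31.5% lower. The median difference was 0.81 log2 over the members and −0.04 over all genes. The summed level of the 31 genes in G1 was 2915, 3043 and 2261 CPM in aPD-1 replicates 1, 2 and 3 and 2547 CPM in IgG, and in S it was 4720, 4774, 4322 and 4517 CPM, so that the lowest S library lay above the highest G1 library. Of this sum Nme1 and Nme2 together held 1170 to 1714 CPM in G1, as UMIs and not per length. Without the 7 deoxynucleotide and salvage genes it was 2620, 2768, 2045 and 2318 CPM in G1 and 3445, 3513, 3137 and 3387 CPM in S, and the phases still did not overlap. Without the 40 cells that held at least 10 UMIs of markers of other cells, and without any single library, the number of members higher in S was again 29. Of the markers of other cells, Igkc was higher in S than in G1 (4.24 ± 1.02 log2) and Krt8 lower (−1.0 ± 0.41 log2, adjusted p = 0.048, edgeR).

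Both subunits of ribonucleotide reductase, which turns ribonucleotides into deoxynucleotides, were higher in S, and Rrm2 differed most of all members. Rrm2 (ENSMUSG00000020649, chr12:24708241-24714146) was at 4.65, 4.32 and 4.68 CPM in G1 of aPD-1 replicates 1, 2 and 3 and at 3.90 CPM in IgG, and in S at 127, 125, 151 and 133 CPM. No G1 library came near an S library, and the fitted difference was 31.2-fold (4.96 ± 0.05 log2, adjusted p = 2.6e-20). In G2M cells Rrm2 stayed high, at 147, 152, 180 and 159 CPM. Rrm1 (chr7:102441695-102469771) went from 18.7, 17.6, 17.1 and 18.7 CPM in G1 to 134, 126, 128 and 121 CPM in S, a 7.04-fold difference (2.82 ± 0.04 log2, adjusted p = 3e-18). It was higher still in G2M, at 164, 162, 161 and 153 CPM.

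The genes of thymidylate supply and salvage were higher in S as well. Tyms (chr5:30058202-30073617), which makes dTMP and uses up a folate carbon unit, was at 17.9, 17.2, 16.6 and 18.8 CPM in G1, at 135, 129, 121 and 130 CPM in S and at 155, 162, 138 and 143 CPM in G2M. Its S level was 7.26-fold that in G1 (2.86 ± 0.04 log2, adjusted p = 6.9e-18). Tk1 (chr11:117815526-117826092), the salvage route to dTMP, was within 7.68 to 7.84 CPM in all 4 G1 libraries and at 101, 105, 105 and 98.0 CPM in S, 13.2-fold higher (3.72 ± 0.05 log2, adjusted p = 7e-19). Dck (chr5:88764996-88783281), which phosphorylates deoxycytidine, rose from 9.54, 7.91, 8.21 and 8.16 CPM to 43.1, 39.9, 37.8 and 35.0 CPM (2.19 ± 0.05 log2), and was lower in G2M, at 36.4, 32.5, 31.6 and 27.5 CPM. Dut (chr2:125247190-125258608), which keeps uracil out of DNA and yields dUMP for Tyms, went from 228, 212, 158 and 166 CPM to 723, 724, 635 and 603 CPM (1.83 ± 0.04 log2). For each of these genes the G1 and S libraries were fully apart.

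**Figure D1:**
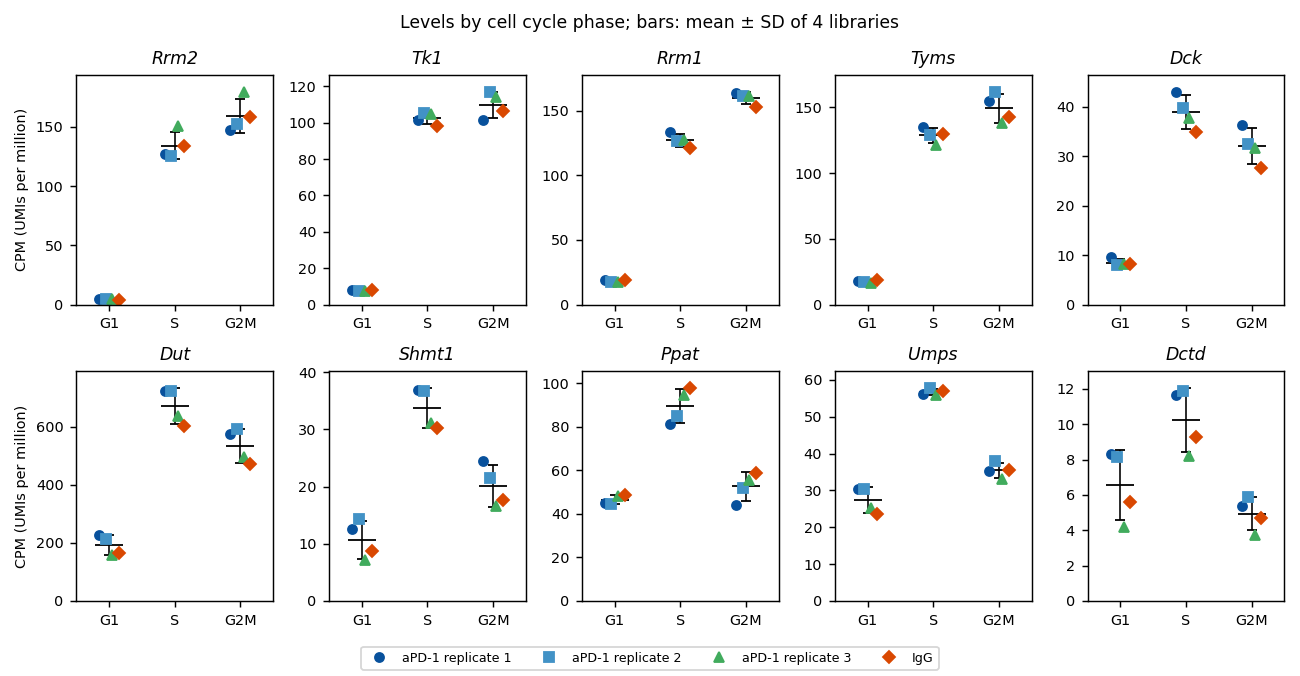
Levels of 10 members (CPM, linear axes from 0) in G1, S and G2M cells; each point is a library, blue circles, light blue squares and green triangles for aPD-1 replicates 1, 2 and 3 and orange diamonds for IgG, and bars give the mean ± SD of the 4 libraries. Rrm2, Tk1, Rrm1 and Tyms were low in G1 and high in both S and G2M, whereas Shmt1, Ppat, Umps and Dctd were highest in S.

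Dctd, the remaining deoxynucleotide gene, differed less, at 8.29, 8.15, 4.20 and 5.62 CPM in G1 and at 11.6, 11.9, 8.17 and 9.27 CPM in S (0.69 ± 0.08 log2), higher in S within each library and overlapping slightly across them. Among the other roles, the differences were smaller than those of the 6 genes above. Shmt1 (chr11:60788104-60811718), the cytosolic serine hydroxymethyltransferase, was at 12.6, 14.3, 7.18 and 8.78 CPM in G1 and at 36.9, 36.7, 31.2 and 30.3 CPM in S, 3.3-fold higher (1.72 ± 0.08 log2, adjusted p = 2.1e-11). Its mitochondrial counterpart Shmt2 differed by 0.68 ± 0.06 log2, and the 5 folate cycle genes ranged from 0.38 (Mthfd1l) to 1.72. Pfas, the amidotransferase of the fourth step of the purine ring, differed by 1.17 ± 0.07 log2, and the 7 genes of that role all rose, from 0.52 (Prps1) upwards. Umps, the last enzyme on the way to UMP, went from 30.5, 30.5, 25.3 and 23.7 CPM to 56.2, 57.8, 55.9 and 56.9 CPM (1.07 ± 0.05 log2), and all 3 pyrimidine genes rose. Phgdh, the first enzyme of serine synthesis, was at 106, 123, 75.5 and 87.2 CPM in G1 and at 190, 196, 182 and 188 CPM in S (0.98 ± 0.07 log2), and all 3 genes of serine synthesis rose. Mthfd1, which carries several folate interconversions in the cytosol, went from 27.3, 26.0, 18.1 and 20.4 CPM to 47.0, 42.1, 42.6 and 44.1 CPM (0.98 ± 0.07 log2).

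In the branch from IMP to AMP and GMP, 2 of 4 genes passed the test. Impdh2 rose by 0.85 ± 0.03 log2, from between 73.0 and 90.0 CPM in G1 to between 143 and 159 CPM in S, and Gmps, which makes GMP, rose by 0.74 ± 0.03. Impdh1, the second IMP dehydrogenase, was at 33.2 ± 1.72 CPM in G1 (SD, n = 4 libraries) and at 34.8 ± 1.06 CPM in S (0.07 ± 0.04 log2, adjusted p = 0.15, edgeR). Adss, which commits IMP to AMP, was at 101, 96.4, 95.6 and 97.1 CPM in G1 and at 102, 99.8, 106 and 98.6 CPM in S (0.06 ± 0.03 log2, adjusted p = 0.11, edgeR). These were the only members that did not pass the test, and for both of them the phases overlapped across libraries, although each was slightly higher in S within all 4. When counts were scaled per cell instead of per UMI, which moves the median of all genes to 0.54 log2, all 31 members were higher in S.

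Among the remaining members, Psat1 was at 41.3, 33.9, 22.7 and 22.9 CPM in G1 and at 66.5, 57.5, 47.4 and 46.6 CPM in S (0.89 ± 0.07 log2). Psph, the phosphatase that releases serine, differed less, from 71.4 to 77.3 CPM in G1 and from 92.9 to 99.9 CPM in S. Paics, which carries a pair of steps of the purine ring, was at 69.4, 68.3, 75.8 and 77.5 CPM in G1 and at 116, 125, 130 and 124 CPM in S, and these phases did not overlap. Cad was at 21.1, 22.5, 13.4 and 15.7 CPM in G1 and at 32.8, 26.9, 26.3 and 27.2 CPM in S. Of the nucleoside diphosphate kinases, which balance the triphosphate pools, Nme1 rose by 0.54 log2, from 328 to 480 CPM over the G1 libraries to 526 to 621 CPM in S, and Nme2 by 0.22 ± 0.03. Rrm2 had 78, 71, 185 and 120 UMIs in the G1 cells of the 4 libraries, in total the thinnest count behind the member differences named above.

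Between S and G2M members differed in both directions. Of the 31 genes 23 were higher in S (20.9% of all genes) and 5 were lower (21.8% of all genes). The member median was 0.26 log2, against 0.00 over all genes. All 7 genes of the purine ring, all 4 of the AMP and GMP branch and all 3 of pyrimidine synthesis were higher in S. Dctd, which feeds dUMP from dCMP, differed most, at 11.6, 11.9, 8.17 and 9.27 CPM in S and at 5.40, 5.90, 3.73 and 4.70 CPM in G2M (1.04 ± 0.09 log2, adjusted p = 1.2e-07). Within each library its S level was above its G2M level, and across libraries the lowest S value still exceeded the highest G2M value. Ppat, the committing step of purine synthesis, was at 81.3, 84.8, 94.7 and 97.9 CPM in S and at 43.9, 52.0, 55.8 and 58.8 CPM in G2M (0.76 ± 0.04 log2). Shmt1 differed by 0.76 ± 0.08, Ctps, the CTP synthase, by 0.74 ± 0.09 and Umps by 0.67 ± 0.05. Gart, a trifunctional enzyme of the purine ring, differed by 0.59 ± 0.07, Mthfd1 by 0.55 ± 0.07, Atic, which closes the ring, by 0.51 ± 0.05 and Paics by 0.44 ± 0.03, followed by Gmps at 0.42 ± 0.03.

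The 5 genes lower in S than in G2M were Rrm1 (−0.34 ± 0.03 log2), Rrm2 (−0.26 ± 0.03), Tyms (−0.22 ± 0.04), Psat1 (−0.20 ± 0.07), the aminotransferase of serine synthesis, and Tk1 (−0.11 ± 0.03). Psat1 and Tk1 lost the call when aPD-1 replicate 2, aPD-1 replicate 3 or IgG was left out, which left 3 genes. Scaled per cell, 14 genes were higher and 7 lower in S than in G2M, with the median of all genes at −0.17 log2, and Adss, Impdh1, Impdh2, Prps1 and Psph turned sign. In nontargeting-guide cells and with no library block, 11 members were higher in each. Against G1, 25 members were higher in G2M (26.1% of all genes) and 1 was lower (31.6% of all genes). The lower one was Dctd, which differed by −0.36 ± 0.10 log2 (adjusted p = 0.0047, edgeR). Its call was lost without aPD-1 replicate 1, and its sign turned when scaled per cell (0.40 log2). The order of the largest differences was much as in S. Rrm2 was 37.3-fold higher in G2M than in G1 (5.22 ± 0.05 log2, adjusted p = 1e-20), Tk1 14.2-fold, at 101, 117, 114 and 106 CPM in G2M, Rrm1 8.91-fold and Tyms 8.45-fold. Dut was at 576, 590, 494 and 471 CPM in G2M, 2.83-fold higher than in G1 and between its G1 and S levels in each library, and Shmt1 at 24.6, 21.6, 16.6 and 17.7 CPM (0.97 ± 0.09 log2), also between them. Psat1 and Phgdh were 1.10 ± 0.07 and 1.05 ± 0.07 log2 higher in G2M than in G1, values beside those of S against G1 (0.89 ± 0.07 and 0.98 ± 0.07). Of the markers of other cells, 8 were lower in G2M than in G1 (the epithelial Epcam, Krt8, Krt18, Krt19 and Muc1 and the macrophage genes C1qa, C1qb and Lyz2, by 0.60 to 2.22 log2), and Igkc, Epcam and Muc1 were higher in S than in G2M. Without the 40 cells holding at least 10 UMIs of such markers, the members called in both comparisons were again 25 and 1 and 23 and 5. The purine genes were closer to G1, with a median of 0.21 log2, and Atic, Adss, Impdh1, Ctps and Nme2 did not pass the test.

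**Figure D2:**
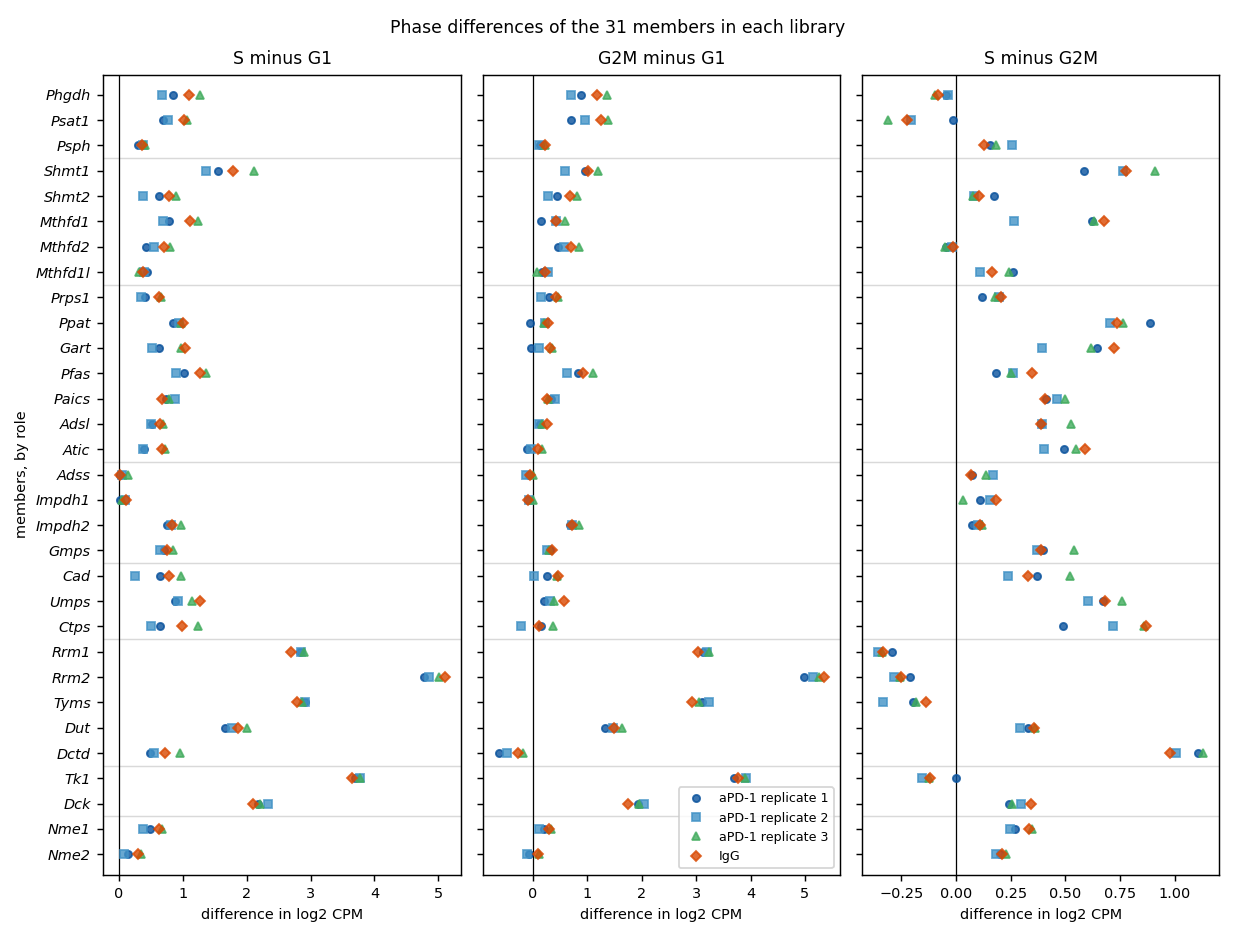
Differences in log2 CPM of the 31 members, grouped by role from top to bottom, for S minus G1, G2M minus G1 and S minus G2M in each library; circles and squares are aPD-1 replicates 1 and 2, triangles replicate 3 and diamonds IgG. Rrm1, Rrm2, Tyms, Dut, Tk1 and Dck lie far to the right of 0 against G1 in both phases, while Dctd lies left of 0 in G2M minus G1 and farthest right in S minus G2M.

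The rest of these pathways was followed in a list of 65 further genes of nucleotide and folate metabolism. In S against G1, 30 of the 58 tested were higher and 13 lower, with a median of 0.12 log2, where 27.2% of all genes were higher and 31.5% lower. Among those that rose were Dtymk, which phosphorylates dTMP (1.15 ± 0.03 log2), and Nudt1, which clears oxidised nucleotides (0.95 ± 0.04). Among those that fell were Cmpk2 (−0.75 ± 0.26) and Upp1, a uridine phosphorylase (−0.60 ± 0.19). Among 14 regulators tested, 10 were higher in S and 2 lower. E2f7 (5.56 ± 0.14), E2f8 (5.38 ± 0.12, a gene of the S list itself) and E2f1 (3.84 ± 0.08), transcription factors of the cell cycle, led, and E2f5 (−0.38 ± 0.09) and Atf4 (−0.15 ± 0.04) were lower. Myc did not pass the test (−0.11 log2). Of 23 targets of ATF4, the amino acid stress factor, 11 were higher and 4 lower. The members Phgdh, Psat1, Psph, Shmt2 and Mthfd2 are also known ATF4 targets and were not counted there.

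S phase cells were divided once more, by whether their score for 56 replication histone genes or for 21 replication licensing genes was the higher one after standardising both over the S cells of the library. Licensing genes mark the approach to replication and histone genes replication itself. Few genes differed: 3.51% of the 11120 tested were higher in histone-high cells and 2.03% lower. Among the members 2 were higher and 4 lower, with a median of −0.03 log2. Rrm2 was at 143, 142, 188 and 162 CPM in histone-high cells and at 111, 107, 118 and 109 CPM in licensing-high cells, 0.54 ± 0.04 log2 higher (adjusted p = 5.4e-11, edgeR). Tyms stood at 144, 142, 137 and 139 CPM against 126, 115, 107 and 123 CPM (0.28 ± 0.04 log2). In the other direction, Umps was at 52.2, 51.5, 46.2 and 50.7 CPM against 60.2, 64.3, 64.6 and 62.0 CPM (−0.30 ± 0.05 log2), and Ppat at 72.9, 74.3, 81.8 and 89.2 CPM against 89.8, 95.9, 106 and 105 CPM (−0.29 ± 0.04 log2). For none of these 4 genes did the libraries of the 2 kinds of cells overlap. Mthfd1 (−0.21 ± 0.05) and Gmps (−0.15 ± 0.04) were lower too, and both lost the call without aPD-1 replicate 3 or without IgG. In nontargeting-guide cells no member was called, and with no library block 1 was higher and 0 were lower. DESeq2 left 2 members lower, and phases called at 2000 UMIs left 1.

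The same split carried other markers. Igkc was 5.75 ± 0.59 log2 higher in histone-high cells, and the keratins Krt8, Krt18 and Krt19 were higher there as well, while 20 of 22 mitosis genes were higher. In S cells of aPD-1 replicate 3, B or plasma cell genes summed to 468.2 CPM, against 3.7 to 4.6 CPM in S cells of the other libraries. Without the cells holding at least 10 UMIs of other cells' markers, 2 members were again higher and 4 lower. The T cell genes, all 7 of those tested, were lower in S than in G1, with a median of −0.29 log2. Beyond that, the part of these shifts in the members' values was not tested.

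To set the genes against markers of T cell states with the cell cycle held back, G1 cells were gated on pairs of marker genes, each with at least 1 UMI. Free RNA can also give single UMIs, and its share in the gates was not measured, so the gates are named by their genes. Tcf7 and Slamf6 mark stem-like or precursor T cells, Klf2 and S1pr1 cells able to leave tissue, Ifng and Tnf cells making cytokines, and Bnip3 and Aldoc cells with a hypoxia programme. The comparison group was Havcr2 Pdcd1 cells, which carry TIM-3 and PD-1 and held none of the other pairs, and it was shared by all 4 comparisons. The other gates were set without regard to Havcr2 and Pdcd1, so their cells may carry both of these as well. It had 530, 520, 1346 and 1653 cells in aPD-1 replicates 1, 2 and 3 and IgG. A gate needs both transcripts to be seen, and so depends on depth as well as state. The median UMI count was 13490.5, 13107.5, 10054.5 and 5470 in Havcr2 Pdcd1 cells, and it was 15568, 15948, 11918 and 6170 in Bnip3 Aldoc cells and 10060, 9551, 7393.5 and 4749.5 in Klf2 S1pr1 cells. Cycling cells left among those called G1 were gauged by summed levels: licensing genes came to 403 to 455 CPM in Havcr2 Pdcd1 cells and 356 to 562 CPM in the gates, and mitosis genes to 311 to 350 CPM and 231 to 431 CPM. In S cells the licensing sum was 2106 to 2253 CPM.

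In Ifng Tnf cells 15 of the 31 members were higher and none was lower, where 10.3% of the 8832 genes tested were higher and 5.5% lower. The member median was 0.22 log2, against −0.01 over all genes. The gate held 73, 76, 385 and 374 cells. Shmt1 was at 23.3, 31.1, 16.4 and 26.7 CPM there and at 13.7, 13.3, 6.68 and 7.04 CPM in Havcr2 Pdcd1 cells, 2.64-fold higher (1.40 ± 0.16 log2, adjusted p = 9.9e-08, edgeR). Every Ifng Tnf library exceeded every Havcr2 Pdcd1 library. Ctps (chr4:120539868-120570276), which sets the supply of CTP, was at 30.2, 36.9, 23.5 and 33.1 CPM against 21.7, 20.4, 11.7 and 15.9 CPM (0.94 ± 0.12 log2, adjusted p = 4.8e-07). Gart (chr16:91621186-91646952) was at 47.5, 57.9, 38.8 and 49.2 CPM against 40.3, 34.0, 26.7 and 24.3 CPM (0.71 ± 0.12 log2). Here aPD-1 replicate 3 lay below the highest Havcr2 Pdcd1 library, although each library differed in the same direction.

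Further members higher in Ifng Tnf cells in every library were Pfas (0.70 ± 0.18 log2), Shmt2 (0.63 ± 0.11), Impdh2 (0.49 ± 0.07), Mthfd2 (0.44 ± 0.10), the mitochondrial folate dehydrogenase, Ppat (0.43 ± 0.08), Adsl (0.41 ± 0.11) and Prps1 (0.38 ± 0.11). Impdh2 was at 110, 112, 95.6 and 108 CPM against 83.6, 81.6, 68.0 and 83.3 CPM, with no overlap, and Ppat at 54.4, 60.4, 68.1 and 61.5 CPM against 50.5, 44.1, 50.5 and 46.5 CPM. Pfas was at 21.6, 13.4, 11.6 and 15.7 CPM against 10.9, 9.68, 9.88 and 7.75 CPM, and Shmt2 at 45.7, 73.0, 30.6 and 39.5 CPM against 32.8, 40.5, 24.0 and 25.2 CPM. Mthfd2 was at 81.1, 81.4, 61.6 and 65.4 CPM against 69.7, 61.2, 42.3 and 53.4 CPM. The libraries of Pfas stood apart between the cell groups, and those of Shmt2 and Mthfd2 overlapped. Umps, Mthfd1 and Gmps were called with 1 library of the opposite sign each. By role, 4 of 5 folate cycle genes, 5 of 7 purine genes and 2 of 3 pyrimidine genes were higher. None of the 5 deoxynucleotide genes, the 2 salvage kinases or the 3 serine synthesis genes passed the test. Rrm2 was at 6.04, 2.52, 7.32 and 2.97 CPM in Ifng Tnf cells and at 4.48, 4.17, 4.77 and 4.39 CPM in Havcr2 Pdcd1 cells, and no licensing gene of 15 was called. Leaving out aPD-1 replicate 3 or IgG lowered the count from 15 to 8 each, all among the 15. In nontargeting-guide cells none passed, with Shmt2 (−0.36 log2), Mthfd2 (−0.17) and Pfas (−0.00482) of the opposite sign, and with no library block 3 did. Gate sums of under 20 cells in a library were dropped, so the nontargeting fit may rest on fewer libraries. In Ifng Tnf cells Myc was 1.51 ± 0.08 log2 higher, Mat2a, which makes S-adenosylmethionine, 0.80 ± 0.09 higher, and the folate carrier Slc19a1 0.63 ± 0.16 higher.

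In Bnip3 Aldoc cells most calls went the other way from the comparison group: 17 members were lower, where 7.61% of all genes were, and 2 were higher, where 7.43% were. The median was −0.28 log2 over the members and 0.00 over all genes. The gate held 85, 97, 591 and 440 cells. Dctd was at 3.76, 1.78, 2.34 and 3.11 CPM against 8.69, 8.61, 4.50 and 6.43 CPM (−1.12 ± 0.25 log2, adjusted p = 0.0015), and no library of the gate reached the lowest of the comparison group. Shmt1 was at 9.41, 6.51, 1.95 and 3.45 CPM (−1.11 ± 0.23 log2) and overlapped between libraries, though it was lower within each of them. The counts behind these levels were low, at 6, 3, 18 and 9 UMIs for Dctd and 15, 11, 15 and 10 for Shmt1. Gart was at 23.2, 23.7, 14.2 and 12.4 CPM (−0.77 ± 0.13 log2, adjusted p = 5.5e-05), below every comparison library. Ppat was at 32.0, 34.3, 35.7 and 32.4 CPM (−0.46 ± 0.08 log2), also with no overlap.

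The other members lower in all 4 libraries with the largest differences were Mthfd1 (−0.62 ± 0.12 log2), Ctps (−0.62 ± 0.14), Shmt2 (−0.55 ± 0.12), Prps1 (−0.52 ± 0.11) and Cad (−0.49 ± 0.16), the enzyme that starts pyrimidine synthesis. Ctps was at 9.41, 14.8, 8.20 and 9.66 CPM against 21.7, 20.4, 11.7 and 15.9 CPM, and Prps1 at 20.7, 19.5, 13.8 and 12.1 CPM against 30.6, 31.5, 18.6 and 20.6 CPM. Atic was at 37.0, 39.1, 37.8 and 33.8 CPM against 51.1, 58.0, 52.3 and 51.7 CPM (−0.47 ± 0.09 log2), with a clear gap between the groups, whereas Ctps and Prps1 overlapped across libraries. All 3 pyrimidine genes and 5 of 7 purine genes were among the 17. Mthfd1l, the mitochondrial formate-producing synthetase, was higher, at 51.4, 38.5, 44.9 and 35.5 CPM against 32.8, 32.4, 28.1 and 33.0 CPM (0.52 ± 0.10 log2, adjusted p = 0.00031). Impdh1 was the second member higher, at 38.3, 50.3, 44.5 and 33.5 CPM against 34.6, 32.4, 33.3 and 31.7 CPM (0.40 ± 0.10 log2). Without aPD-1 replicate 3 both of these lost the call and 11 members were lower, a number also reached without aPD-1 replicate 1 and without IgG. Scaled per cell, which puts the median of all genes at 0.20 log2, 6 members were lower and 5 higher. With each cell thinned to 3000 UMIs before gating, 2 were lower. In nontargeting-guide cells, where gate sums of under 20 cells were dropped, 1 member was lower and 0 were higher. With no library block 2 were lower and 0 higher. Beyond the members, Ak4, a mitochondrial adenylate kinase known as a hypoxia target, was 1.61 ± 0.22 log2 higher, and Myc was 0.60 lower on the log2 scale (−0.60 ± 0.10).

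**Figure D3:**
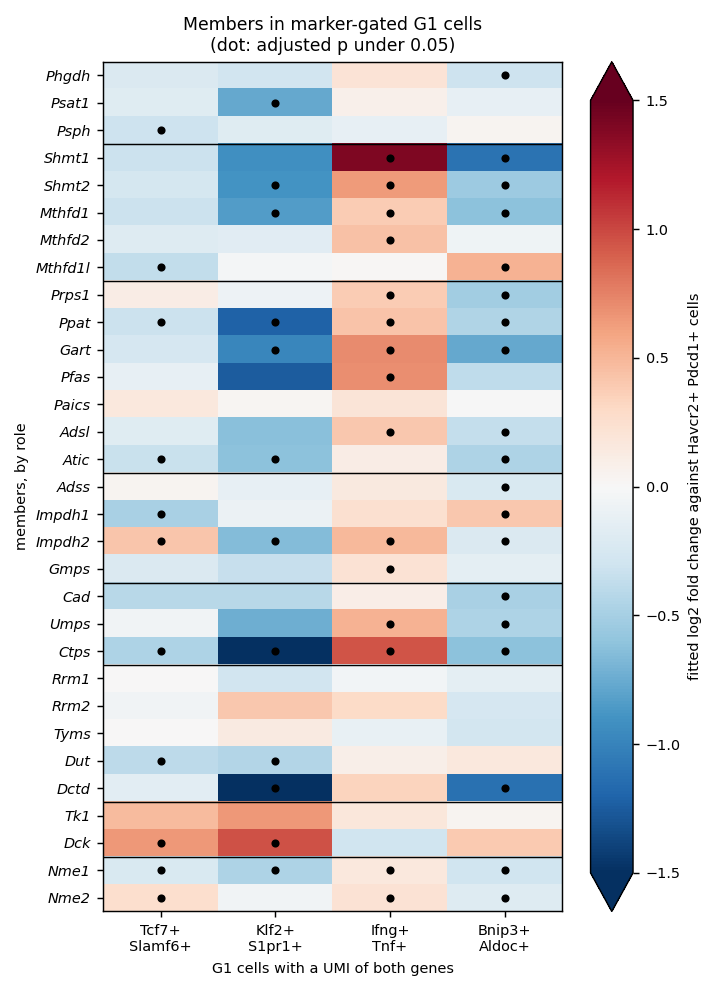
Log2 fold changes of the 31 members (rows, by role) in each of the 4 gates against Havcr2 Pdcd1 G1 cells (columns), from blue for lower to red for higher, with dots on members past an adjusted p of 0.05. Ifng Tnf cells show 15 dots, all on red, and Bnip3 Aldoc cells 17 on blue and 2 on red.

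Tcf7 Slamf6 cells, with 111, 99, 146 and 309 cells in the 4 libraries, showed calls in both directions. There 3 members were higher, where 13.7% of all genes were, and 8 lower, where 13.9% were, with medians of −0.20 log2 over the members and 0.00 over all genes. Dck was at 10.1, 10.3, 11.8 and 15.9 CPM against 8.17, 6.99, 7.50 and 8.67 CPM (0.65 ± 0.20 log2, adjusted p = 0.014), with no overlap. Impdh2 was at 108, 94.2, 94.7 and 115 CPM (0.41 ± 0.07 log2, adjusted p = 4.7e-05), and Nme2 differed by 0.26 ± 0.06. Impdh1, its paralogue, was lower, at 27.3, 24.5, 24.9 and 17.5 CPM (−0.49 ± 0.14 log2, adjusted p = 0.007), below every comparison library. Dut was at 181, 176, 117 and 136 CPM against 236, 222, 163 and 185 CPM (−0.40 ± 0.08 log2), lower within each library. Ctps (−0.47 ± 0.17), Mthfd1l (−0.36 ± 0.14), Atic (−0.33 ± 0.11), Ppat (−0.32 ± 0.10), Psph (−0.31 ± 0.09) and Nme1 (−0.23 ± 0.06) were lower as well. Psph was at 54.5, 55.4, 71.7 and 64.7 CPM against 80.0, 85.3, 74.0 and 74.3 CPM, again with every Tcf7 Slamf6 library below.

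In nontargeting-guide cells no member was called in Tcf7 Slamf6 cells, with Ppat (0.039 log2), Atic (0.038), Impdh1 (0.19) and Nme1 (0.35) of the opposite sign, and with no library block none was called lower. Only 146, 147, 394 and 588 nontargeting-guide cells were called G1 in aPD-1 replicates 1, 2 and 3 and IgG. Gate sums of under 20 cells in a library were dropped, so the nontargeting fit may rest on fewer libraries. Gated at 3000 UMIs, 1 member was higher and 6 were lower. Without aPD-1 replicate 2, aPD-1 replicate 3 or IgG, 5, 4 and 5 members were lower, and Dck lost its call without aPD-1 replicate 3 or IgG. Over cells of all phases, where the gates can differ in cycling cells, 17 members were lower and Dck was −0.19 log2. In that fit 15.9% of all genes were lower. In the fit on G1 cells, where 13.9% of all genes were lower, Asns, an ATF4 target, was lower (−0.92 ± 0.18), as were 6 of 17 ATF4 targets tested. There Adk, the adenosine kinase, was higher (0.78 ± 0.11) and Myc was 0.34 ± 0.11 higher. Prss2, an acinar digestive enzyme, was 1.95 ± 0.48 log2 higher in this gate and Epcam was lower (−0.84 ± 0.32). Without the cells holding markers of other cells 7 members were lower, with Mthfd1l the one lost.

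Klf2 S1pr1 cells were the smallest group, with 47, 39, 64 and 28 cells. In them 11 members were lower, where 11.9% of all genes were, and 1 was higher, where 10.6% were, with a median of −0.42 log2 over the members and −0.01 over all genes. Ctps had 3, 1, 1 and 1 UMIs in the 4 libraries, 6 in all, where 28.2 would be found at the level of Havcr2 Pdcd1 cells, a ratio of 0.213 (exact Poisson interval 0.0781 to 0.463, counting error only). Its fitted difference was −2.24 ± 0.43 log2 (adjusted p = 0.00015). Dctd had 3 UMIs in all, against 11.4 at the comparison level, a ratio of 0.264 (0.0545 to 0.772). Ppat was at 20.7, 24.5, 17.5 and 28.1 CPM against 50.5, 44.1, 50.5 and 46.5 CPM (−1.21 ± 0.20 log2, adjusted p = 1.5e-05), and Nme1 at 327, 333, 302 and 295 CPM against 457, 501, 348 and 368 CPM (−0.46 ± 0.07 log2, adjusted p = 1.1e-05). Both were below every comparison library.

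Gart (−0.98 ± 0.29 log2), Impdh2 (−0.65 ± 0.14), Atic (−0.61 ± 0.19) and Dut (−0.44 ± 0.11) were lower in all 4 libraries of Klf2 S1pr1 cells. Impdh2 was at 64.0, 39.2, 48.6 and 49.2 CPM against 83.6, 81.6, 68.0 and 83.3 CPM, with no overlap, and Atic at 28.2, 41.7, 35.0 and 49.2 CPM against 51.1, 58.0, 52.3 and 51.7 CPM. Shmt2 (−0.90 ± 0.26), Mthfd1 (−0.84 ± 0.27) and Psat1 (−0.77 ± 0.24) were called with IgG of the opposite sign. Dck was the member that was higher, at 13.2, 17.2, 15.6 and 21.1 CPM (0.95 ± 0.33 log2, adjusted p = 0.035, edgeR), 25 UMIs in all where 12.3 would be found at the comparison level. Its call was lost without any single aPD-1 library, and without aPD-1 replicate 1 only 6 members were lower. Thinned to 3000 UMIs before gating, 3 members were lower, and scaled per cell 21 were, with the median of all genes at −0.36 log2. Samhd1, which breaks down deoxynucleotides, was 1.83 ± 0.11 log2 higher in these cells, and Myc was lower (−0.76 ± 0.23). Prss2 was 2.57 ± 0.77 log2 higher.

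**Figure D4:**
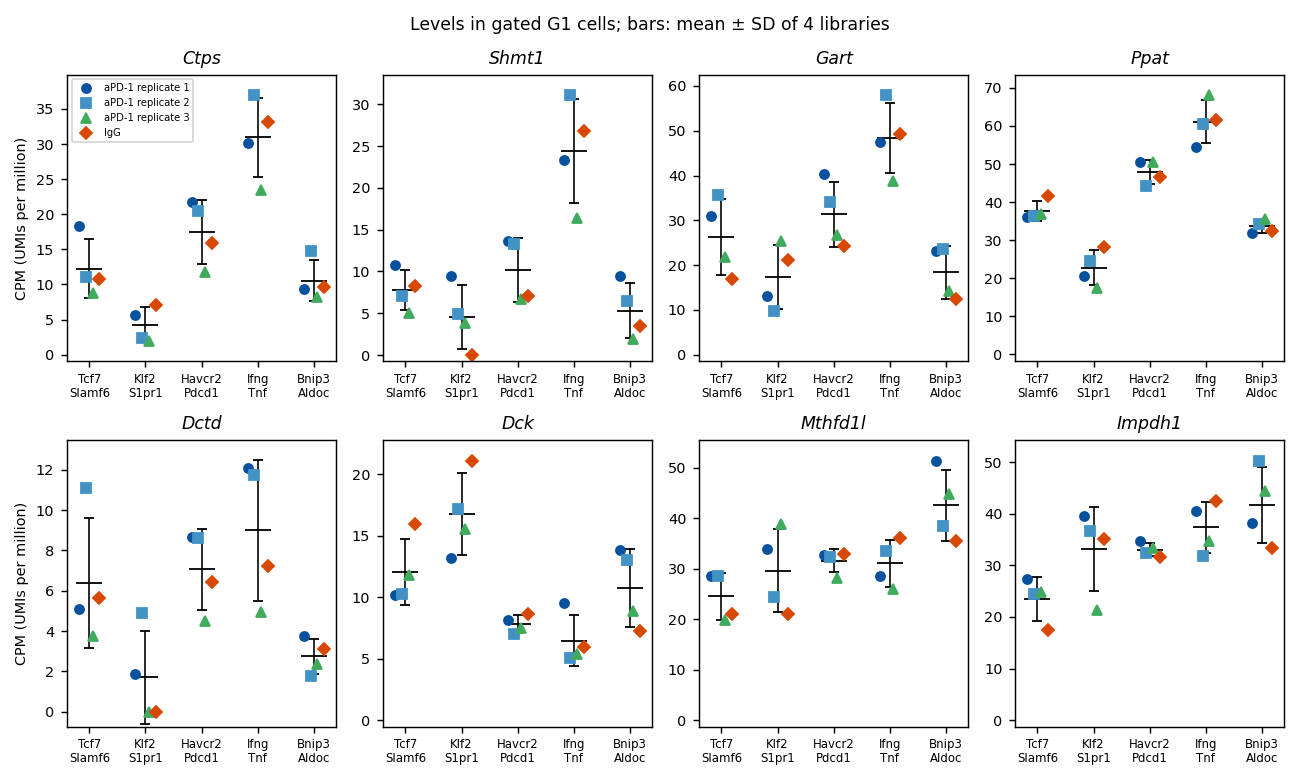
Levels (CPM) of selected members in the 5 gates of G1 cells; each point is a library, coloured and shaped as in the plot by phase, and bars give the mean ± SD of the 4 libraries. Ctps, Shmt1 and Gart lie highest in Ifng Tnf cells, and Dck lies highest in Klf2 S1pr1 cells.

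Whether anti-PD-1 treatment moved these genes was asked over all kept cells of each library. No member passed the test, nor did any of the 13810 genes tested (0.0%, edgeR). At an unadjusted p under 0.05 there were 282 genes and 0 members, and DESeq2 called 5 genes, none of them members (Tnfsf8, Mt3, Tcf7, Gm48236 and Gpr65, chosen after their values were seen). With a lone IgG library, the fit assumes that it varies as the aPD-1 libraries do. Member differences ran from −0.17 ± 0.14 log2 for Atic to 0.37 ± 0.28 for Prps1, with a median of 0.08. Prps1, which makes the sugar phosphate for all nucleotides, was at 38.1, 36.7 and 24.7 CPM in aPD-1 replicates 1, 2 and 3 and at 25.9 CPM in IgG. Psat1 was at 58.0, 52.0 and 39.3 CPM against 40.0 CPM (0.33 ± 0.24 log2), and Rrm2 at 90.9, 92.0 and 93.0 CPM against 92.4 CPM (0.01 ± 0.12). For Prps1 and Psat1 replicates 1 and 2 lay above IgG and replicate 3 lay just below it. With the shared name of replicates 1 and 2 as a term, which sets replicate 3 alone against IgG, Prps1 was −0.068 and Psat1 −0.027 log2.

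In 20 of the 31 members replicates 1 and 2 were both above IgG and replicate 3 was below it, an order found in 15.9% of all genes. Without aPD-1 replicate 3, 9 members were higher in aPD-1 than in IgG, where 12.4% of all genes were. Their differences ran from 0.28 ± 0.10 log2 for Cad to 0.55 ± 0.10 for Prps1. With replicate 3 in the fit none of them passed, and the 3316 genes called without it became 0. Replicates 1 and 2 share a name in the labels and were similar in depth, and the study's methods speak of batches that no label assigns to libraries, so that preparation and treatment cannot be told apart in the fit without replicate 3.

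**Figure D5:**
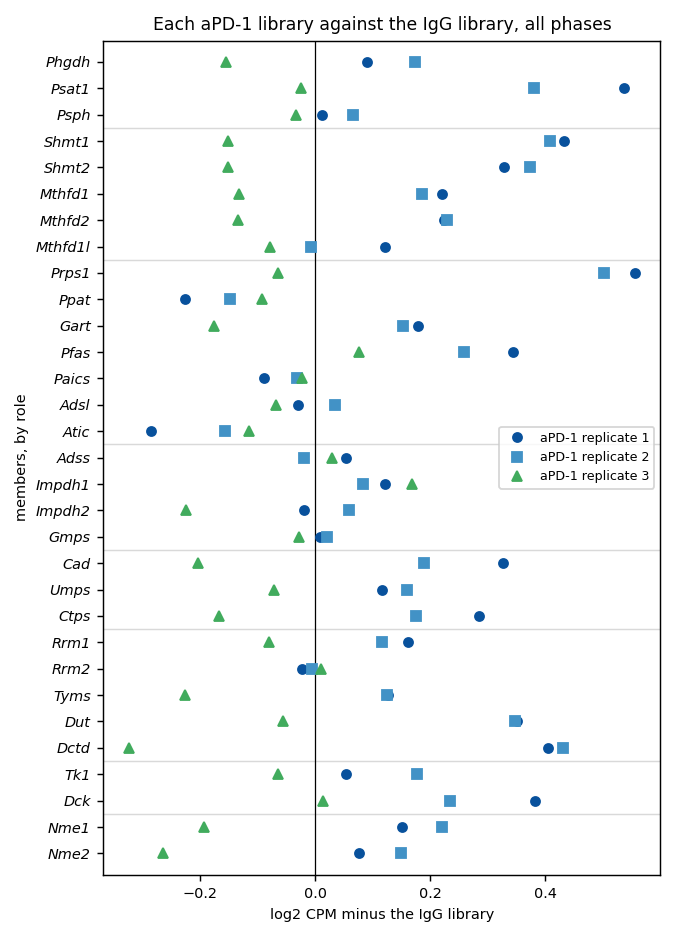
Log2 CPM of each aPD-1 library minus that of the IgG library for the 31 members, by role, over all phases; circles, squares and triangles are aPD-1 replicates 1, 2 and 3. For most members replicates 1 and 2 lie to the right of 0 and replicate 3 to the left, as for Dctd, Psat1 and Prps1.

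The S minus G1 difference was compared between treatments with an interaction term. None of the 12733 genes tested passed (0.0%, edgeR), with 397 genes and 2 members, Umps and Rrm1, at an unadjusted p under 0.05. DESeq2 was not run on it. In this fit the members ranged from −0.30 ± 0.14 log2 for Gart to 0.19 ± 0.09 for Rrm1. Gart differed between S and G1 by 0.62, 0.51 and 0.97 log2 in the 3 aPD-1 libraries and by 1.04 in IgG. Without aPD-1 replicate 3, Gart (−0.43 ± 0.10), Phgdh (−0.32 ± 0.07) and Nme2 (−0.16 ± 0.04) were called lower, where 0.689% of all genes were. The share of cells in S was 31.7%, 31.7% and 24.6% in aPD-1 and 29.5% in IgG (exact 95% interval 28.7 to 30.3), and that in G2M 21.4%, 22.5% and 19.6% against 23.1% (22.4 to 23.9). Two-sided exact permutation tests over libraries gave p = 1 and p = 0.5, and 4 libraries cannot give less than 0.25.

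Some members share sequence with neighbours in the annotation. Nme1 and Nme2 lie side by side on chromosome 11 and share the readthrough transcript Gm20390 on the same strand, so the split of reads between them is uncertain. The 3′ ends of Shmt1, Shmt2, Gart, Impdh2 and Tk1 overlap genes on the opposite strand (Smcr8, Ndufa4l2, Gm15964, Ndufaf3 and Gm20708), and whether strand was used in counting was not given in the sources used here. In sums over cells such as these, fewer cells with a transcript and fewer transcripts per cell cannot be told apart.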

How the data were processed

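Sorted cells of 4 libraries (3 aPD-1, 1 IgG) were profiled by the authors with 10x Genomics 3′ v3.1 chemistry with guide capture. The deposited count matrices hold raw UMI counts per gene and barcode, made per the labels with Cell Ranger 3.1.0 on mm10, and a deposited table of guide calls names the guides per barcode.

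Barcodes with 1 guide, log10 UMI totals no farther than 3 median absolute deviations from their library's median and at most 10% mitochondrial UMIs were kept. Phases were scored with scanpy 1.11.5 within each library, from 40 S and 54 G2M genes and without the members. UMIs were summed per library and phase, gate or whole library, filtered with filterByExpr, scaled by TMM and tested with edgeR 4.0.16 (quasi-likelihood, Benjamini-Hochberg over all genes tested, 0.05) in R 4.3.3. Phase and gate fits had library as a block. Gates needed at least 1 UMI of both genes, at least 20 cells per library, and left out cells in several gates, of which there were 759 over all phases. No doublet caller was run. Barcodes with several guides had been dropped, which does not remove a cell with a guide joined to a cell without a called guide. Replicate numbers were given in accession order and pair nothing across treatments. Up to 10 members per comparison were named by size among those past the test with the same sign in every library, with those called against the direction of most; others named, uncalled or with a library of opposite sign, are marked as such where they stand. A few genes of the further lists are not reported here. The members, gates and further gene lists were chosen with earlier results of these data known. The fits were tested on simulated counts. Alternatives were other scalings (DESeq2 1.42.0 size factors, total UMIs, per cell), no filter, DESeq2, leaving out each library, nontargeting-guide cells, thinned UMIs, no block, all phases and cells free of other cells' markers. Depth was 142945121 to 155974184 UMIs per library, and intervals cover counting error only.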

Additional observations from a re-analysis of the deposited data

Results flagged for a closer look

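For 14 values the IgG library moved one way and all 3 aPD-1 libraries the other, and in none of them was the difference between treatments tested. The values are log2 differences in IgG, followed by the range over the aPD-1 libraries.

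Of these, 5 were in Klf2 S1pr1 cells, where IgG had 28 cells. Psat1 was 0.27 (−1.28 to −0.24), Shmt2 0.16 (−1.24 to −0.66) and Mthfd1 0.11 (−1.71 to −0.67), all 3 called lower over the 4 libraries. Umps was 0.63 (−1.38 to −0.50) and Psph 0.058 (−0.37 to −0.00184). In Tcf7 Slamf6 cells Shmt1 was 0.22 (−0.90 to −0.35), Adsl 0.053 (−0.49 to −0.04) and Prps1 −0.042 (0.01 to 0.23). In Ifng Tnf cells Psat1 was −0.11 (0.00279 to 0.15). In Bnip3 Aldoc cells Dut was −0.21 (0.04 to 0.44) and Dck −0.26 (0.24 to 0.90). Between histone-high and licensing-high S cells Ctps was 0.000866 (−0.27 to −0.04), Rrm1 0.00955 (−0.13 to −0.03) and Tk1 0.067 (−0.06 to −0.03).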

How the results depend on the processing

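In S against G1 the count of 29 members higher held under every alternative run within 1.5 times. The members lower in G2M than in G1 went from 1 to 0 in nontargeting-guide cells, with no replicate block (library left out of the fit) and when scaled per cell, where Dctd was 0.40 log2, and leaving out single libraries gave 0 to 1. In S against G2M, nontargeting-guide cells gave 11 higher and 2 lower, with Impdh2 at −0.029. No replicate block gave 11 and 1, and per-cell scaling 14 higher, with Psph at −0.00366, Prps1 at −0.00909, Adss at −0.072, Impdh1 at −0.062 and Impdh2 at −0.082. Without cells near the phase cut 3 were lower, and without single libraries 3 to 5. Between the 2 kinds of S cells, nontargeting-guide cells gave 0 higher and 0 lower, no replicate block 1 and 0, DESeq2 2 lower, phases called at 2000 UMIs 1 lower, and single libraries left out 2 to 6 lower.

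Among the gates, nontargeting-guide cells gave 0 higher and 0 lower for Tcf7 Slamf6 (Ppat 0.039, Atic 0.038, Impdh1 0.19, Nme1 0.35), 0 higher for Ifng Tnf (Shmt2 −0.36, Mthfd2 −0.17, Pfas −0.00482) and 0 higher and 1 lower for Bnip3 Aldoc. The Klf2 S1pr1 gate was not run in them, since too few cells were left. For the other gates, sums of under 20 cells in a library were dropped, so these fits may rest on fewer libraries. No replicate block gave 0 lower for Tcf7 Slamf6, 4 lower for Klf2 S1pr1, 3 higher for Ifng Tnf and 0 higher and 2 lower for Bnip3 Aldoc. Per-cell scaling gave 0 higher and 21 lower for Klf2 S1pr1 and 5 higher and 6 lower for Bnip3 Aldoc, with Nme2 at 0.022. Over all phases 17 were lower for Tcf7 Slamf6, with Dck at −0.19, and 3 higher for Klf2 S1pr1. Gates set at 3000 UMIs gave 1 higher for Tcf7 Slamf6, 0 higher and 3 lower for Klf2 S1pr1, 0 higher and 2 lower for Bnip3 Aldoc, and 1 lower for Ifng Tnf (Dck, −1.40). No filter on low counts gave 0 higher for Klf2 S1pr1. Leaving out single libraries gave 4 to 6 lower for Tcf7 Slamf6, 0 to 1 higher and 6 to 11 lower for Klf2 S1pr1, 8 to 14 higher for Ifng Tnf and 0 to 3 higher and 11 to 15 lower for Bnip3 Aldoc.

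For aPD-1 against IgG, leaving out single libraries gave 0 to 9 members, and the interaction 0 to 3. With library name pairs as a term, Psat1 was −0.027 and Prps1 −0.068. The S share of aPD-1 minus IgG, −0.134 percentage points, was 2.85 with phases called at 2000 UMIs and −1.32 to 2.23 without single libraries. The G2M share, −1.97 points, was 2.41 in nontargeting-guide cells.

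Calls over all genes moved as well. Nontargeting-guide cells and no replicate block gave 3088 and 3494 for S against G1 (7185), 3262 and 3633 for G2M against G1 (7068), 1233 and 1647 for S against G2M (5230), 81 and 79 between the 2 kinds of S cells (616; DESeq2 218, without aPD-1 replicate 3 367), 231 and 792 for Tcf7 Slamf6 (2435), 180 and 111 for Ifng Tnf (1398; 854 without replicate 3, 718 without IgG) and 151 and 187 for Bnip3 Aldoc (1328; 868 without replicate 3, 2621 per cell, 2274 in all phases, 214 at 3000 UMIs). Klf2 S1pr1 (1992) had 1097 with no block, 3164 per cell, 3086 in all phases and 750 at 3000 UMIs. Treatment (0) had 3316 without replicate 3, 5 by DESeq2 and 283 with the pair term, and the interaction (0) 39 with no filter and 189 without replicate 3. The cause of these moves was not tested; nontargeting-guide cells are 2685 of 23059. With 1 IgG library no paired analysis across treatments was possible.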

Other observations

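The S minus G1 difference was smaller in both aPD-1 replicates 1 and 2 than in aPD-1 replicate 3 and in IgG for 22 of the 31 members, and larger in both for 2, orders found in 24.7% and 21.2% of all genes. For G2M minus G1 these numbers were 21 and 2, against 22.6% and 21.7% of all genes. Phgdh, for example, differed between S and G1 by 0.84 and 0.67 log2 in aPD-1 replicates 1 and 2, by 1.27 in replicate 3 and by 1.10 in IgG, and Cad by 0.64, 0.26, 0.97 and 0.79.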
